A study of Mus musculus with 18 samples.

Results

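The tumour suppressor p53 is a transcription factor that accumulates when DNA is damaged and then raises the transcription of genes that hold the cell cycle, restrain growth signals and limit or repair the damage. Described here are 10 of its known growth arrest and damage targets in mouse lung, namely Cdkn1a, Ccng1, Btg2, Plk2, Zmat3, Phlda3, Zfp365, Ddit4l, Sesn1 and Gadd45a. The genes were chosen with their measured values in these mice in view, so their differences between dose groups are given as a description. The calls, p-value counts and intervals printed for them below belong to that description and do not test the set. All probes whose accession belongs to these genes were taken, which gave 11 of the 55681 probes and 10 of the 20660 genes with a symbol on the array, with 2 probes for Cdkn1a and 1 for each other gene.

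Polycyclic aromatic hydrocarbons (PAHs) are converted in tissues to reactive metabolites that bind DNA. In lung, p21, the protein made from Cdkn1a, is the classical brake on cell division after such damage.

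The mice were adult males of the Muta Mouse strain, a transgenic line that carries a lacZ reporter for mutations. They received the 4PAH-Mix, made of benzo(a)pyrene (BaP), benz(a)anthracene, benzo(b)fluoranthene and chrysene in olive oil, by oral gavage for 28 days, and lungs were taken 72 hours after the last dose. Vehicle mice (n = 5, mice 1 to 5) received olive oil alone. The low dose was 12.5 (n = 4, mice 6, 7, 9 and 10), the medium dose 25 (n = 5, mice 11 to 15) and the high dose 50 mg BaP equivalents/kg-bw/day (n = 4, mice 16, 17, 18 and 20). The question addressed is how the level of these transcripts stood at each dose. The low- and high-dose groups each hold 1 mouse fewer than the study's methods give, and the missing mice were not analysed here.

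Each value below is a log2 ratio of the labelled lung RNA (Cy5) to a reference RNA pooled from mouse cell lines (Cy3), measured on 1 array per mouse, so 1 unit is a doubling. A log2 difference is the mean log2 ratio of one group minus that of another. The dyes were not swapped, and levels of different genes cannot be set against each other. A gene was called where limma's adjusted p over all probes was at most 0.05 and the fold change was at least 1.5. In Cy5, 51.5% to 61.1% of an array's probes stood well above background. All 10 genes had a probe well above background and below saturation on every array, so each of the 18 mice gives a measured value. The arrays came from 3 slides that each held all 4 groups, but each dose group had its own column on the slide, so position and dose cannot be told apart. In RNA of whole lung tissue, fewer cells of a type and less RNA per cell cannot be told apart either.

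The markers matched the lung label, with all measured markers of alveolar type 2 (5 genes), alveolar type 1 (4), club (3), ciliated (4) and endothelial cells (5) well above background in Cy5 on every array. Of 4 hepatocyte genes, Ttr was so on no array and Alb on 5 of 18, but Serpina1a on 16 and Apoa2 on all 18. The mean log2 ratio of 4 fibroblast markers lay between -0.87 and -0.46 in vehicle mice. In low-dose mice it lay between -1.24 and -0.94, in medium-dose mice between -1.59 and -1.02 and in high-dose mice between -1.60 and -0.94, and Col1a1, Col1a2 and Dcn were called lower at the medium and high doses. At the high dose all 3 calls were lost without vehicle mouse 3 or high-dose mice 16 or 18, and Dcn also without mice 2, 5 or 17. At the medium dose Col1a2 was lost without mice 3 or 12 and Dcn without mice 12 or 14. The T and NK cell list lay between 0.55 and 1.28 in vehicle mice and between 0.19 and 0.58 at the high dose, where Gzma alone of its 7 genes was called lower. The B cell list ran from 0.49 to 1.45 in vehicle mice, from 1.31 to 1.74 at the low dose, from 1.18 to 1.80 in medium-dose mice and from 1.40 to 1.67 at the high dose. Its genes Ms4a1 (log2 difference 0.70) and Cd79b (0.70) were called higher at the medium dose, the former not without mice 3, 4, 12 or 14 and the latter not without mice 3, 4, 5, 9, 12, 13, 14 or 15. The endothelial list lay between 4.05 and 4.51 in vehicle mice and between 4.32 and 4.49 at the high dose, and Pecam1 alone of its 5 genes was called higher, with 0.69 at the medium dose (not called without vehicle mouse 3) and 0.74 at the high dose. None of these marker calls held with median centring. The alveolar type 1 list lay between 3.93 and 4.22 in vehicle mice and between 3.80 and 4.13 at the low dose. It lay between 3.79 and 3.98 in medium-dose mice and between 3.70 and 3.89 at the high dose, below every vehicle mouse. All 4 of its genes had a mean below that of vehicle mice at each dose, and none was called. The 4 cardiomyocyte markers varied widely within groups, from 0.58 to 4.02 in vehicle mice, 1.66 to 4.56 at the low dose, 0.56 to 3.37 in medium-dose mice and 0.59 to 3.92 at the high dose, and none was called. The part of these shifts in the differences below was not tested.

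The p53 arrest genes were not a uniform set. At the high dose, 7 of the 10 were higher than in vehicle mice by 1.83-fold (Zfp365) to 5.53-fold (Cdkn1a), with every high-dose mouse above every vehicle mouse. Gadd45a stood 1.25-fold higher, with overlap between the groups. Sesn1 (1.06-fold) and Btg2 (1.01-fold) lay close to their vehicle level. For 8 of the 10 genes the group mean rose at each step from vehicle to the high dose, Sesn1 and Btg2 being the exceptions.

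**Figure D1:**
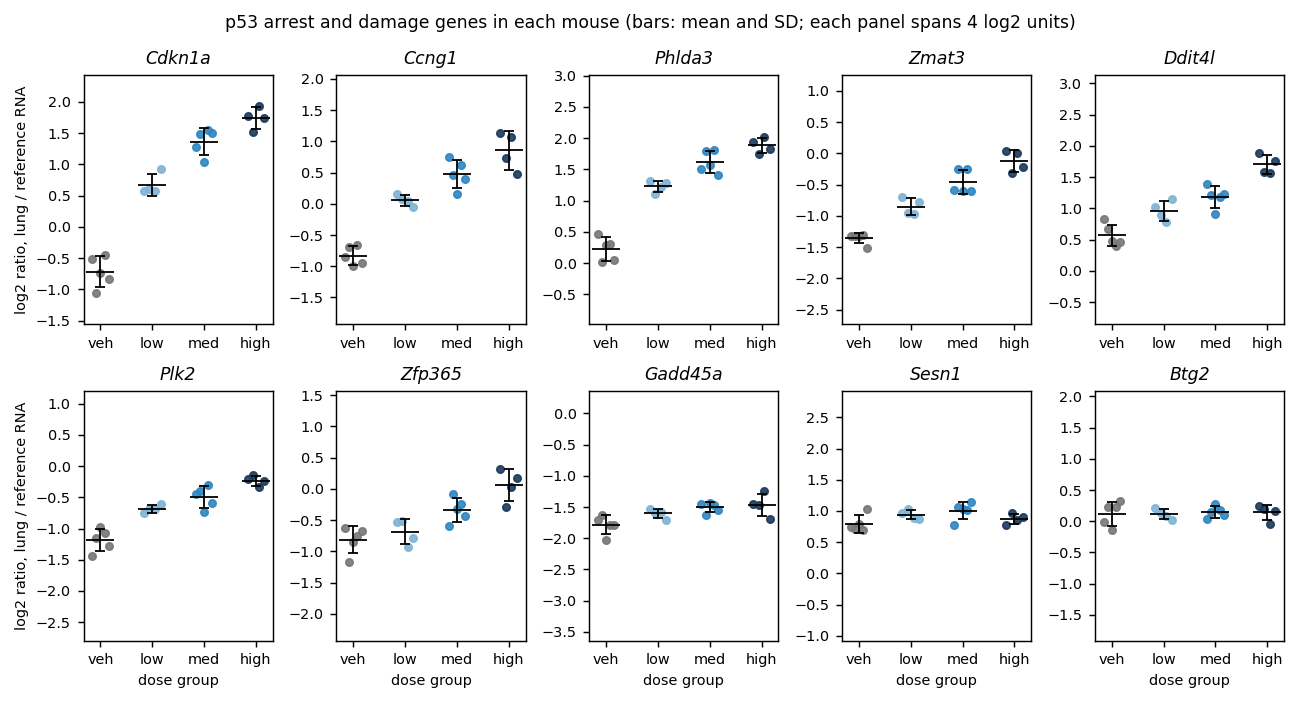
Log2 ratio of lung to reference RNA (vertical axis, each panel spanning 4 log2 units) in each of the 18 mice (points) by dose group (horizontal axis: vehicle, low, medium and high) for the 10 genes, with bars for the group mean and SD. Cdkn1a climbs from a mean of -0.72 in vehicle mice to 1.75 at the high dose, while the 4 groups of Btg2 lie on one level between 0.11 and 0.15.

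Cdkn1a encodes p21, an inhibitor of cyclin-dependent kinases. Its log2 ratio in vehicle mice 1 to 5 was -0.51, -1.06, -0.74, -0.45 and -0.83, and in the low-dose mice 6, 7, 9 and 10 it was 0.57, 0.61, 0.57 and 0.93. In the medium-dose mice it was 1.27, 1.48, 1.03, 1.55 and 1.5, and in the high-dose mice 1.78, 1.52, 1.94 and 1.75. All 13 exposed mice lay above all vehicle mice with a gap of over 1 log2 unit, the low- and medium-dose mice did not overlap, and the medium and high doses overlapped. The log2 difference from vehicle mice was 1.39, 2.09 and 2.47 from the low to the high dose, with standard errors (SE) of 0.13, 0.12 and 0.13. By its rise at the high dose Cdkn1a ranked 3 among the 20660 genes.

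The second Cdkn1a probe, designed to another transcript record of the gene, gave larger differences in the same order, 1.84, 2.63 and 2.96. Its log2 ratio lay between -1.38 and -1.02 in vehicle mice, between 0.38 and 0.75 at the low dose, between 0.98 and 1.71 in medium-dose mice and between 1.43 and 1.95 in high-dose mice. It was well above background on 4 of the 5 vehicle arrays, and on this probe too every exposed mouse stood above every vehicle mouse.

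Mouse Cdkn1a has 2 RefSeq start sites on chromosome 17, 2790 bases apart. The promoter windows below show what stands beside the starts of the listed genes, whether or not they rose with dose. The windows (RefSeq, GRCm38.p6) run from 250 bases before to 50 after a start and exist for 9 of the 10 genes, 11 windows in all. They were searched on both strands for the p53 consensus half-site of 10 letters, and for a full response element, that is, 2 half-sites with a spacer of at most 13 bases, the core of each intact and at most 3 of the 20 letters off the consensus; a full element can therefore hold or overlap a half-site. A half-site stood in 5 of the 11 windows (Cdkn1a, Ccng1, Ddit4l, Sesn1 and Gadd45a) and in 8.36% of all 32851 promoter windows. A full element stood in 3 of the 11 (Cdkn1a, Zfp365 and Sesn1) and in 6.72% of all windows. The windows of Btg2, Plk2 and Phlda3 held neither. For the p53 targets of cell death described below, half-site and full element stood in 4 and 4 of 11 windows. These counts were 2 and 2 of 11 for targets of repair and metabolism, 4 and 2 of 11 for the p53 family and its regulators. For the relatives of the 10 genes they were 0 and 2 of 20. Median GC content was 65.7% in the windows of the 10 genes and 52.7% in all windows. The 10 genes were listed as p53 targets, so nothing is drawn from the contrast with all windows. Matches are printed in capitals, in the direction of the gene, for the genes that stood higher at the high dose and, for contrast, for Sesn1, which lay near its vehicle level. They lie at chr17:29090881-29090962 (plus strand, Cdkn1a with spacer), chr17:29090903-29090972 (plus, Cdkn1a without spacer), chr11:40755437-40755496 (minus, Ccng1), chr3:137623557-137623616 (plus, Ddit4l), chr10:67912681-67912750 (minus, Zfp365), chr6:67037413-67037472 (minus, Gadd45a) and chr10:41887228-41887300 (plus, Sesn1).
Cdkn1a with spacer: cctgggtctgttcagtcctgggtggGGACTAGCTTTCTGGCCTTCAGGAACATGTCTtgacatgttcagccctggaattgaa
Cdkn1a without spacer: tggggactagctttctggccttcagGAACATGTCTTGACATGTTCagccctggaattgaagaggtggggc
Ccng1: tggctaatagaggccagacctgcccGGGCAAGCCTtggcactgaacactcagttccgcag
Ddit4l: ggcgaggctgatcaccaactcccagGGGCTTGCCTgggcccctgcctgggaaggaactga
Zfp365: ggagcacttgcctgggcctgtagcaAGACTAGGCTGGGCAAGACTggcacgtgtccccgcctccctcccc
Gadd45a: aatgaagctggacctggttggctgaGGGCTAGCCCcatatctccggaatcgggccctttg
Sesn1: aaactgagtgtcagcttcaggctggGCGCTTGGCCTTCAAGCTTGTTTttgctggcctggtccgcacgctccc
By letters alone, with the length of the spacer not counted, the closest match is a Cdkn1a pair. It begins 73 bases before the upstream start, has a spacer of 12 bases and is 0 letters off the consensus. Its second half-site, 51 bases before the start, is also the first of the other Cdkn1a pair, which has no spacer and is 1 letter off. The Zfp365 window held 4 overlapping pairs, 2 to 3 letters off, of which the one without a spacer (2 letters off) is printed. The Sesn1 pair is 2 letters off. The window of the other Cdkn1a start and that of the other Sesn1 start held no match. These are matches of letters in short windows and were not tested for binding.

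Ccng1 encodes cyclin G1, an atypical cyclin that takes part in the feedback on p53. Its log2 ratio was -0.85, -0.69, -1.0, -0.66 and -0.95 in vehicle mice and 0.15, 0.08, 0.04 and -0.06 at the low dose. It was 0.75, 0.46, 0.16, 0.62 and 0.40 in medium-dose mice and 1.14, 0.73, 1.07 and 0.48 in high-dose mice. No exposed mouse overlapped the vehicle group, and the high-dose mice spread widely, with mouse 20 below 2 of the medium-dose mice. The log2 differences from vehicle mice were 0.89, 1.31 and 1.68 from the low to the high dose, with standard errors of 0.13, 0.12 and 0.13.

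Phlda3 encodes a small pleckstrin homology domain protein that competes with the growth kinase Akt for membrane lipids. The vehicle mice stood at 0.47, 0.02, 0.29, 0.31 and 0.05 and the low-dose mice at 1.31, 1.1, 1.22 and 1.28. The medium-dose mice stood at 1.51, 1.79, 1.57, 1.81 and 1.41 and the high-dose mice at 1.93, 1.75, 2.02 and 1.83. Vehicle, low- and medium-dose mice formed 3 ranges that did not overlap, and only the medium and high doses shared part of their range. Its log2 differences were 1.00, 1.39 and 1.66 (SE 0.10 at each dose).

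Zmat3 encodes a zinc finger protein that binds RNA. Of the 10 genes it had the smallest SD in vehicle mice, at -1.32, -1.32, -1.32, -1.31 and -1.51, where mouse 5 alone stood apart. In low-dose mice it was -0.70, -0.95, -0.98 and -0.78, in medium-dose mice -0.59, -0.24, -0.60, -0.25 and -0.60, and in high-dose mice 0.04, -0.31, 0.01 and -0.22. The medium-dose mice fell on 2 levels, with mice 12 and 14 above mice 11, 13 and 15, and only high-dose mouse 17 reached down into the medium range. Its log2 differences were 0.50, 0.90 and 1.23, with standard errors of 0.10, 0.09 and 0.10.

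Plk2 encodes a polo-like kinase induced by stress, and Ddit4l an inhibitor of mTOR signalling. For Plk2 the vehicle mice stood at -1.44, -1.15, -0.98, -1.07 and -1.28, the low-dose mice at -0.75, -0.69, -0.69 and -0.61, the medium-dose mice at -0.45, -0.39, -0.73, -0.31 and -0.59 and the high-dose mice at -0.21, -0.14, -0.33 and -0.25. No exposed mouse reached the vehicle range, and medium-dose mouse 13 lay within the low-dose range. The log2 differences of Plk2 were 0.50, 0.69 and 0.95 (SE 0.10, 0.09 and 0.10). For Ddit4l the vehicle mice stood at 0.82, 0.67, 0.48, 0.40 and 0.47, the low-dose mice at 1.03, 0.90, 0.78 and 1.15, the medium-dose mice at 1.38, 1.21, 0.91, 1.18 and 1.22 and the high-dose mice at 1.89, 1.59, 1.57 and 1.77. Low-dose mouse 9 lay below vehicle mouse 1, and Ddit4l was the only one of the 10 genes whose high-dose mice all lay above all medium-dose mice. Its log2 differences were 0.40, 0.61 and 1.14 (SE 0.11, 0.10 and 0.11).

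Zfp365, the mouse counterpart of human ZNF365, encodes a protein linked to genome stability. Its log2 ratio was -0.62, -1.17, -0.84, -0.76 and -0.68 in vehicle mice and -0.53, -0.51, -0.93 and -0.78 at the low dose, so the low dose overlapped the vehicle group. In medium-dose mice it was -0.60, -0.08, -0.33, -0.24 and -0.43, and in high-dose mice 0.31, -0.29, 0.03 and 0.17. Both higher doses lay wholly above the vehicle group, mouse 11 at the medium dose by a margin of only 0.02. The log2 difference was 0.13, 0.48 and 0.87 from the low to the high dose (SE 0.13, 0.12 and 0.13).

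**Figure D2:**
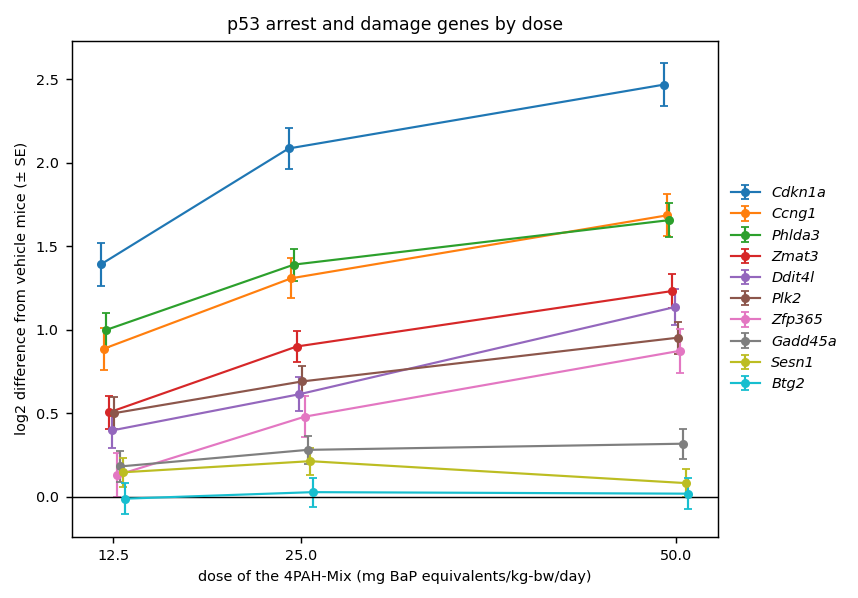
Log2 difference from vehicle mice (vertical axis, points with standard errors) against the dose of the 4PAH-Mix in mg BaP equivalents/kg-bw/day (horizontal axis) for the 10 genes, with points shifted sideways for legibility. Cdkn1a, Phlda3 and Ccng1 had differences of 1.39, 1.00 and 0.89 already at the low dose, whereas Zfp365 (0.13) and Ddit4l (0.40) reached most of their high-dose difference above it.

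The low-dose difference was 60.3% of the high-dose difference for Phlda3, 56.4% for Cdkn1a, 52.6% for Ccng1 and for Plk2, 41.0% for Zmat3, 34.9% for Ddit4l and 14.8% for Zfp365, on the log2 scale. The medium-dose difference was 84.5% of the high-dose difference for Cdkn1a and 83.9% for Phlda3, against 54.9% for Zfp365 and 54.1% for Ddit4l. The order of the 7 genes thus changed with dose, Ddit4l passing Plk2 between the medium and the high dose. Whether these shares differ between genes was not tested.

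The other 3 genes differed less from vehicle mice. Gadd45a encodes a small acidic protein of the growth arrest and DNA damage family. Its log2 ratio was -1.70, -1.62, -2.03, -1.78 and -1.78 in vehicle mice, -1.53, -1.60, -1.57 and -1.71 at the low dose. It was -1.45, -1.62, -1.43, -1.47 and -1.54 in medium-dose mice and -1.46, -1.47, -1.25 and -1.69 in high-dose mice. Of the 13 exposed mice, 10 lay above all vehicle mice. The log2 difference was 0.18 at the low dose (95% interval -0.01 to 0.37), 0.28 for the medium (0.10 to 0.46) and 0.32 for the high (0.13 to 0.51), under the fold change limit at each dose. Its means stood in the order of dose, with 57.1% of the high-dose difference at the low dose and 88.4% at the medium dose.

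Sesn1 encodes sestrin 1, which restrains mTOR signalling and oxidative damage. Its log2 ratio was 0.74, 0.71, 0.78, 0.70 and 1.04 in vehicle mice, and 0.97, 1.03, 0.89 and 0.88 at the low dose. It was 0.77, 1.07, 1.03, 1.02 and 1.15 in medium-dose mice and 0.78, 0.96, 0.86 and 0.90 in high-dose mice. Vehicle mouse 5 lay above every low- and high-dose mouse, and the highest mean was that of the medium dose. The log2 difference was 0.15 (95% interval -0.03 to 0.32), 0.21 (0.05 to 0.38) and 0.08 (-0.10 to 0.26).

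Btg2 encodes an antiproliferative protein of the BTG/TOB family. It stood at -0.01, 0.22, -0.14, 0.22 and 0.32 in vehicle mice, and at 0.21, 0.13, 0.09 and 0.02 at the low dose. In medium-dose mice it stood at 0.04, 0.14, 0.28, 0.19 and 0.09, and in high-dose mice at 0.25, 0.19, -0.04 and 0.17. Every exposed mouse lay within the vehicle range. The log2 difference was -0.01 (95% interval -0.20 to 0.18), 0.03 (-0.15 to 0.21) and 0.02 (-0.17 to 0.21), so each interval ended well short of the fold change limit in either direction.

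Counted by the call rule, 3 of the 10 genes were called higher at the low dose (Cdkn1a, Ccng1 and Phlda3), against 0.116% of all genes. At the medium dose 6 were called higher, with Plk2, Zmat3 and Ddit4l added, against 0.503%, and at the high dose 7, with Zfp365 added, against 0.736%. None was called lower, nor was any lower at an unadjusted limma p under 0.05, and the share of all genes called lower was 0.0436%, 0.431% and 0.774% from the low to the high dose. The groups did not overlap for 5, 7 and 7 of the 10 genes, against 3.36%, 5.97% and 10.7% of all genes. The median log2 difference of the 10 genes was 0.45, 0.65 and 1.04, and that of all genes 0.01, 0.02 and 0.02. Because the genes were chosen on these same contrasts, the counts are given beside the background and nothing is drawn from the contrast between them. With each array centred on its median in place of loess normalization, no gene of the 10 was called at the low dose and 3 at the medium dose.

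Between doses, 6 of the 10 genes were called higher at the high than at the low dose (Cdkn1a, Ccng1, Zmat3, Phlda3, Zfp365 and Ddit4l), against 0.0629% of all genes. Their log2 differences ran from 0.66 (Phlda3) to 1.08 (Cdkn1a). Over 29 alternatives of processing or of mice left out, the call was lost in 20 for Zfp365 and 10 for Ccng1. It was lost in 6 for Phlda3, 4 for Ddit4l, 3 for Zmat3 and 1 for Cdkn1a. The count of 6 genes rested on few mice. It was 1 without high-dose mouse 16 or low-dose mouse 7, 2 without low-dose mouse 9, 3 without low-dose mouse 6 or high-dose mouse 18, and 0 with median centring. In the same comparison the 4 cardiomyocyte markers had log2 differences of -1.14 to -0.48 with a median of -0.98, none of them called, and their part in this count was not tested. Plk2, at 0.45, was not called, although its high- and low-dose mice did not overlap. Between neighbouring doses limma called none of the 10, and 0% of all genes higher either from low to medium or from medium to high. At an unadjusted p under 0.05, 5 of the 10 genes passed from low to medium and 7 from medium to high, beside 1116 and 799 of all genes. The median step of the 10 genes was 0.28 from low to medium and 0.30 from medium to high.

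The mice of a group also differed among themselves. Averaged over the 10 genes, the difference from the vehicle mean lay between -0.05 and 0.06 in vehicle mice, between 0.44 and 0.57 at the low dose, between 0.69 and 0.91 in medium-dose mice and between 0.95 and 1.14 in high-dose mice. Mouse 16 was the highest of the high-dose mice, with the group's top value for 5 of the 10 genes, and mouse 13 the lowest of the medium-dose mice, with the bottom value for 5. Within each of the 3 slides, Cdkn1a, Ccng1, Phlda3, Zmat3, Plk2, Ddit4l and Gadd45a were higher than in the vehicle mice of the same slide at each dose, 9 of 9 differences per gene. The within-slide differences ran from 1.17 to 2.58 for Cdkn1a, from 0.92 to 1.78 for Phlda3 and from 0.87 to 1.89 for Ccng1. For Zfp365 and Sesn1, 7 of 9 were above 0, and for Btg2 4 of 9. The third slide held 1 mouse of each group.

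The genes whose pattern over the 18 mice was nearest to that of Cdkn1a were ranked by the root mean square of the distance between their differences from the vehicle mean, over 20629 genes with a value in every mouse. The nearest were Ces2e (0.44 log2 units), Mmrn2 (0.52), Dbp (0.56), Phlda3 (0.58) and Gdf15 (0.60). Ccng1 ranked 6 at 0.64, Zmat3 24, Ddit4l 42, Plk2 46 and Zfp365 120. Gadd45a ranked 1021, Sesn1 3292 and Btg2 10615. The measure rewards a rise of the same size, so genes with a smaller rise rank lower whatever their order over the mice.

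Most of the 10 genes belong to families, and their relatives were set beside them. Of the 23 relatives measured, 1 was called higher at the high dose, Sesn2, and none lower, and none was called at the low or medium dose by limma. Among these relatives, the probe of Btg4 was well above background in Cy5 on no array, and those of Plk4 and Phlda2 on few. At an unadjusted limma p under 0.05, 2 of the 23 were higher and 1 lower at the low dose. At the medium dose 3 were higher and 4 lower, and at the high dose 5 higher and 4 lower. Of all 20660 genes, 1914, 4062 and 4124 passed that limit in either direction from the low to the high dose. The number of relatives called at the high dose was 2 without vehicle mouse 2 or high-dose mouse 18, and that at the medium dose was 1 without mice 3, 4, 5, 11 or 15. The median log2 difference of the relatives was 0.02, 0.02 and -0.05 from the low to the high dose. Sesn2, a sestrin induced by several kinds of stress, had a log2 difference of 0.67 at the high dose (SE 0.12, limma adjusted p = 0.00185), while its relative Sesn1 lay near 0. Sesn3 had a difference of 0.02. Among the kinase inhibitors, Cdkn1b (p27) had a difference of -0.10 and Cdkn1c (p57) one of -0.38 beside the 2.47 of Cdkn1a. Cyclin G2 (Ccng2) had 0.06 beside the 1.68 of Ccng1. Gadd45b and Gadd45g had -0.35 and -0.45 beside the 0.32 of Gadd45a. Plk3 (0.42) and Plk5 (0.58) were not called, and Ddit4 had 0.31 beside the 1.14 of Ddit4l.

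**Figure D3:**
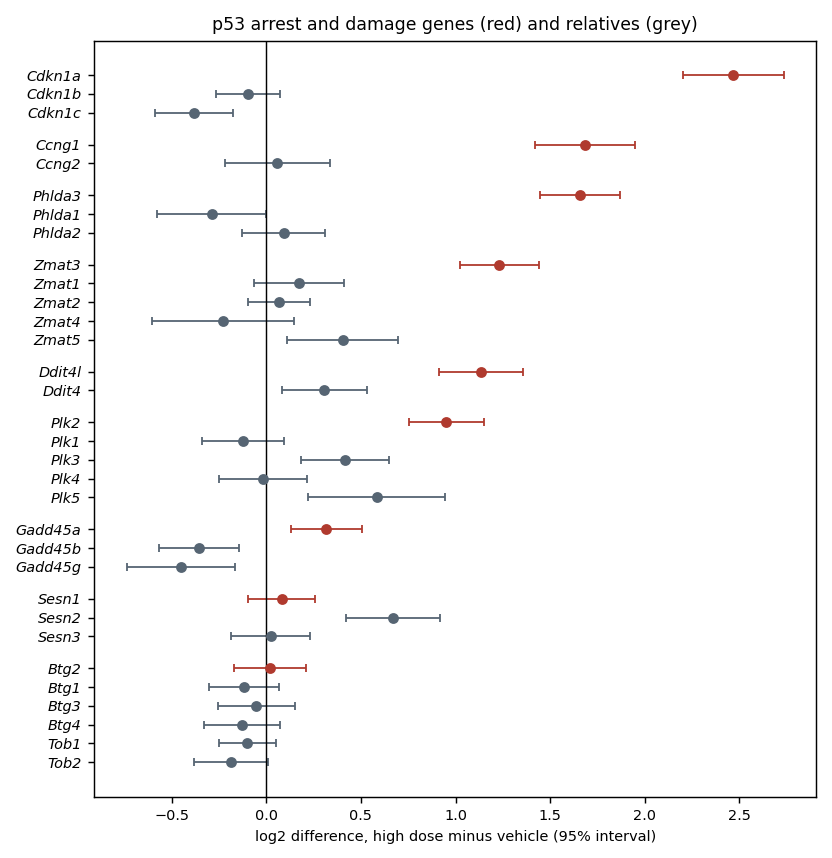
Log2 difference of the high dose from vehicle mice (horizontal axis, points with 95% intervals) for 9 of the genes (red) and their 23 relatives (grey), grouped by family (vertical axis). In the families of Cdkn1a, Ccng1, Phlda3, Zmat3, Ddit4l and Gadd45a the red interval lies above those of all relatives, and in the sestrins the relative Sesn2 (0.67) lies above Sesn1 (0.08). Phlda2, Plk4 and Btg4 were not well above background in Cy5 on most or all arrays.

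Upstream of these genes, the p53 family and its regulators moved in both directions. At the high dose, 2 of the 10 genes of this list were called higher and 2 lower, with 1 higher at the low and 2 higher at the medium dose. Mdm2, the ubiquitin ligase that marks p53 for destruction and is itself a p53 target, had a log2 difference of 0.40, 0.61 and 0.71 (SE 0.08 at each dose) and was called at the medium and high doses, the former falling short of the fold change limit (0.58) without mice 2, 3, 4 or 14. Trp53inp1, a p53 target that promotes p53 activity, had 0.78, 1.13 and 1.23 and was called at each dose. Trp53, the gene of p53 itself, stood at -1.24, -1.36, -1.07, -1.12 and -0.99 in vehicle mice and at -2.02, -2.00, -1.5 and -1.52 at the high dose, without overlap. Its log2 difference was -0.41, -0.49 and -0.61 (SE 0.13 at the high dose, limma adjusted p = 0.00834). The call was lost without mice 16, 17, 3 or 5, where the difference lay between -0.58 and -0.52, and with median centring (-0.45), Cy5 alone (-0.47) or the slide as a block (-0.57). Mdm4, an inhibitor of p53, had a difference of -0.70 at the high dose (SE 0.14, limma adjusted p = 0.00461) on its brightest probe and -0.20 on its other probe, which was not called. With median centring (-0.52) or Cy5 alone (-0.56) the brightest probe was not called either.

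Among other p53 targets, both those of cell death and those of repair and metabolism held called and uncalled genes. In the cell death list, 3 of 11 genes were called higher at the high dose and none lower, with a median log2 difference of 0.41. They were Aen, an exonuclease of apoptosis, with 1.42 (SE 0.11), Bax, a pore-forming protein of the mitochondrial death pathway, with 1.24 (0.21), and the death receptor Tnfrsf10b with 0.73 (0.11). Pmaip1 (0.42), Bbc3 (0.41) and Fas (-0.01) were not called. In the list of repair and metabolism, 4 of 12 were called higher and none lower, with a median of 0.13. The stress cytokine Gdf15 had a log2 difference of 2.05, 2.78 and 2.88 from the low to the high dose, the epoxide hydrolase Ephx1 0.88, 1.06 and 1.35, the translesion polymerase Polk 0.62, 0.67 and 0.96 and the ribosomal protein paralog Rps27l 0.52, 0.76 and 0.93. The second Polk probe gave 0.34 at the high dose and was not called. Ddb2 (0.10), Xpc (0.14) and Rrm2b (-0.07), all of DNA repair or nucleotide supply, were not called, and this Rrm2b probe was not well above background in Cy5 in most mice. The second Rrm2b probe gave 0.21 at the high dose and was not called either.

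None of the listed cyclins and kinases that p21 binds, and none of the division genes, was called lower at any dose. The probes of Cdk1, Ccne2 and Aurkb were well above background in Cy5 on no array, and those of Cdk6 and Cdc25c on few. A fall of these genes could hardly register. Of 10 cyclins and kinases that p21 binds, 1 was called higher at the high dose, where the median was 0.19. This was Ccnd1 (cyclin D1), with a log2 difference of 0.65 (SE 0.11, limma adjusted p = 0.000716), and without high-dose mouse 20 the count was 2. Of 19 genes of DNA replication and mitosis, none was called by limma at the high dose, where the median was 0.13 and the range -0.12 to 0.53. At an unadjusted limma p under 0.05, 4 of these were higher there and none lower, beside 4124 of all 20660 genes in either direction. Of the 19 genes, 2 were called there without vehicle mouse 3 and 1 without high-dose mouse 18. At the medium dose 1 was called higher, the mitotic survival gene Birc5, with 0.66 (SE 0.15, limma adjusted p = 0.0134), which was not called without medium-dose mouse 13 and whose other 2 probes gave 0.24 and -0.01. The division gene Mki67 had 0.43 on its brightest probe at the medium dose, and on its other probe 0.68, which was called.

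**Figure D4:**
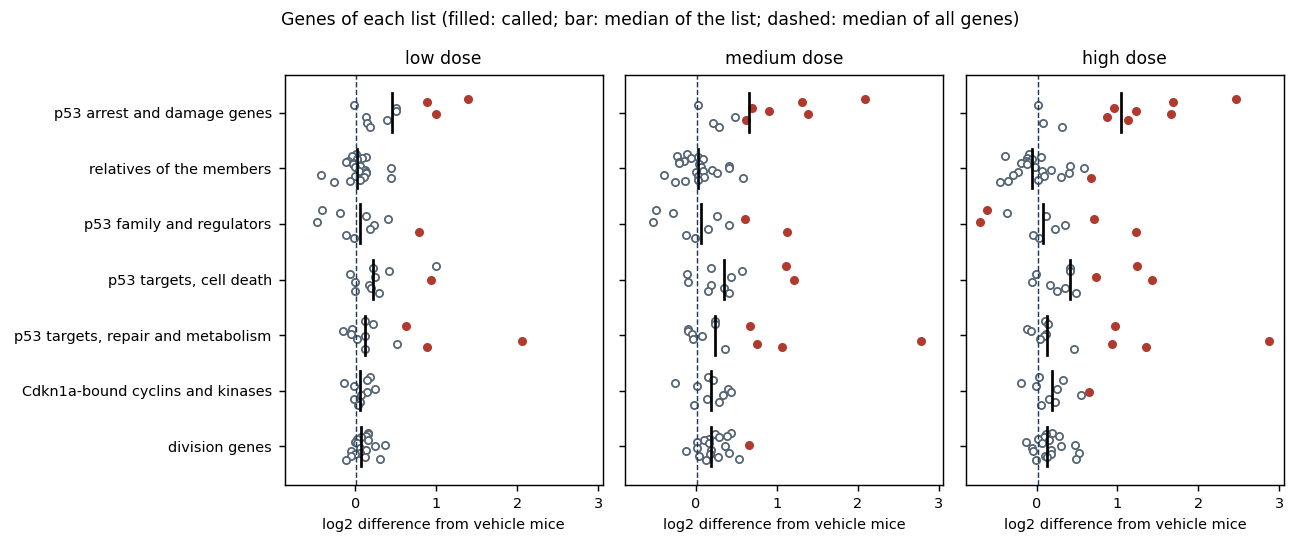
Log2 difference from vehicle mice (horizontal axis) of each gene (points, filled where called) in 7 lists (vertical axis) at the low, medium and high dose (panels), with a bar for the median of each list and a dashed line for the median of all genes. The list of the 10 p53 arrest and damage genes moves from a median of 0.45 to 1.04, and the lists of relatives and division genes stay between -0.05 and 0.18.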

How the data were processed

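Lung RNA of 18 mice was hybridized with Cy5 against Universal Mouse Reference RNA with Cy3 on 2-colour Agilent arrays. The authors deposited the scanner output (Feature Extraction 11.0.1.1 in the file headers) with median signal intensities of both channels, flags, and a log10 ratio per spot made by the scanner software. They also deposited a table of log2 ratios, which the scanner values showed to be Cy5 over Cy3 normalized within arrays (Pearson 0.995 to 0.998 per array with the values used here, column medians -0.03 to -0.02). For such data the study's methods name LOWESS normalization of the median signals.

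As the study's methods state, no background was subtracted. Log2 ratios of the median intensities were normalized by loess within arrays in R 4.3.3 with limma 3.58.1. Outlier spots (215 to 307 per array) had no weight, control spots were left out and spots of a probe were averaged, and 86 probes lacked a value on some array. All groups entered 1 limma fit, with Benjamini-Hochberg adjustment per comparison over 55681 probes. The study's MAANOVA test was not run. The fit was tested on simulated data. Accessions were matched to RefSeq symbols (GRCm38.p6, 27235 probes), and a gene with several probes is represented by the one of highest mean log2 intensity. No value column was left unmatched to a mouse.

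The 10 genes and all lists were chosen with earlier results of these data known. Named were all 10 genes, each gene of a list or marker set called at any dose against vehicle (for a list without a call, the 3 with the largest differences at the high dose), and the 5 genes nearest to Cdkn1a. Other relatives and targets without a call were named after their values were seen, as was Mki67. The alternatives were normexp background correction (offset 50), the scanner software's ratios, the deposited table, median centring, scale normalization, Cy5 alone, probes well above background, slide as a block, no fold limit, the mean of a gene's probes, only the groups compared, and each mouse left out. Precision is limited by the number of arrays. The labels do not say more of the replicates than that they are separate mice.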

Additional observations from a re-analysis of the deposited data

Results flagged for a closer look

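In 3 of the 40 combinations of gene and dose group, 1 mouse stood far from the others of its group, judged by its gap to the nearest mouse relative to the range of the group. By chance alone, about 1 in 20 of the combinations tested would stand out in this way, which is not far from the 3 in 40 seen. Cdkn1a in low-dose mouse 10 was 0.93, with the nearest low-dose mouse at 0.61. Zmat3 in vehicle mouse 5 was -1.51, with the nearest vehicle mouse at -1.32. Sesn1 in vehicle mouse 5 was 1.04, with the nearest at 0.78. Without mouse 10 the low-dose log2 difference of Cdkn1a was 1.30 in place of 1.39.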

How the results depend on the processing

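No called difference of a named gene changed sign under any alternative that was run. Of 2842 comparisons of a named gene's log2 difference with an alternative, 2681 kept their call or lack of one, 157 lost it and 4 gained it. When arrays were centred on their median instead of by loess, calls of higher among the 10 genes numbered 0 at the low dose, 3 at the medium dose and 0 for high against low, and without a fold change limit they numbered 5 at the low dose. Leaving out any single mouse, the number stayed at 3 at the low and 7 at the high dose, lay between 5 and 6 at the medium dose, and between 1 and 6 for high against low. Median centring raised the median SE of all genes at the high dose to 0.18 from 0.10, and Zfp365, at 1.05, was then not called there. At the high dose, 152 of all genes were called higher and 160 lower, against 44 and 6 with median centring, 219 and 143 with scale normalization and 656 and 503 without the fold limit. Median centring raised the median of all genes there from 0.02 to 0.10. Gadd45a passed at the high dose only without the fold limit. Mouse numbers are not shared between groups, so mice were not matched by number, and the slide, which holds all groups, served as the block; with it 3, 6 and 7 of the 10 genes were called higher from the low to the high dose and 5 for high against low. Array signal limits the second Cdkn1a probe, which was dim on 1 vehicle array.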
